A study of Mus musculus with 6 samples.

Results

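Complex I (NADH:ubiquinone oxidoreductase) is the entry point of the mitochondrial respiratory chain. It takes electrons from NADH, passes them through a flavin and a row of iron-sulfur clusters to ubiquinone, and pumps protons across the inner membrane. The L-shaped complex has a matrix arm, made of the N module that oxidises NADH and the Q module that reduces ubiquinone, and a membrane arm that moves the protons. Its catalytic core is split between genes of the nucleus (Ndufs and Ndufv) and of the mitochondrial chromosome (the mt-Nd genes). Accessory subunits surround the core, and assembly factors build the complex without staying in it. In fat, heat-producing (thermogenic) adipocytes are rich in mitochondria, and white adipocytes hold far fewer.

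The genes described here are the nuclear-encoded genes of complex I in iWAT, the inguinal white fat pad, which lies under the skin of the groin. They were chosen by name and level. Of the 56691 genes in the deposited table, 54 had a symbol starting with Nduf, 3 of these were left out for a hyphen (pseudogene names), and 2 for a mean below 1 FPKM. FPKM is a gene's counts divided by the summed length of its annotated exons and by the library's total. Comparisons of level between genes therefore depend on that annotated length. This left 49 genes on 18 chromosomes, 41 of them subunit genes and 8 assembly factor genes (Ndufaf). Just inside the minimum was Ndufs6b with a mean of 1.32 FPKM, and just outside were Ndufa11b and Ndufb11b, listed at 0 in all 6 libraries. The subunit genes include 4 that are not plain subunits of the complex. Ndufa4 is now counted with complex IV, Ndufa4l2 is its paralog, and Ndufb4c and Ndufs6b carry the names of further copies of Ndufb4 and Ndufs6. Ndufab1, an acyl carrier protein, also acts outside the complex in mitochondrial fatty acid synthesis.

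The libraries came from 6 male C57BL/6J mice that were 8 weeks old at the start. For the following 8 weeks, 3 of them were kept with 1 mouse per cage (single housing) and 3 with 4 to 6 mice per cage (group housing). All had room to move, normal light and normal temperature, and each mouse gave 1 RNA-seq library of total RNA. By its title the study concerns social isolation, blood glucose and the sympathetic drive to this fat pad. The labels do not say which mice shared a cage or litter, and p-values measure only the spread between these mice.

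Several features of the libraries touch the values below. Totals lay between 21410779 and 35318376 counts per library, and the 49 genes took 0.392% to 0.465% of them in single-housed mice and 0.305% to 0.446% in group-housed mice. White adipocyte markers (10 of 10 found, none at 0) summed to 7185 to 9858 FPKM under single housing and 6037 to 11369 FPKM under group housing. Skeletal muscle is rich in complex I, and its 25 markers, none at 0 throughout, summed to 73.5, 63.9 and 4331 FPKM in single-housed libraries 1, 2 and 3, against 397, 1589 and 61.7 FPKM in group-housed libraries 1, 2 and 3. Of the 3 most abundant, Acta1, Tnnt3 and Myh4, the actin gene Acta1 stood at 2.29, 2.49 and 715 FPKM in single-housed and 42.8, 234 and 2.34 FPKM in group-housed libraries. Thermogenic adipocyte markers (10 of 10 found) summed to 688 to 1067 FPKM in single-housed and 311 to 424 FPKM in group-housed mice, the groups lying apart. Ucp1, the uncoupling protein of these cells, was among them at 219 ± 50.6 FPKM in single-housed mice, against 54.1 ± 4.65 FPKM in group-housed mice (SD, n = 3 each). Of these thermogenic markers, Dio2 and Kcnk3 overlapped between the groups on FPKM. Macrophage markers (8 listed) summed to 171 to 187 FPKM under single and 248 to 269 FPKM under group housing, and endothelial markers (5 listed) to 123 to 152 FPKM under single and 90.9 to 109 FPKM under group housing, so both also lay apart. Markers of B cells (397 to 881 FPKM under single and 653 to 1103 FPKM under group housing), T cells (48.6 to 175 FPKM under single and 85.0 to 195 FPKM under group housing), adipose progenitors (278 to 418 FPKM under single and 271 to 448 FPKM under group housing) and epithelium (0.58 to 1.62 FPKM under single and 0.78 to 1.53 FPKM under group housing) overlapped between the groups. The part of these contents in the values below was not tested.

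Promoter sequences were searched for letters that some of the genes share at their starts. RefSeq windows (build GRCm38.p6, 250 bases before and 50 from the gene start) were found for 41 of the 49 genes, and not for 8, among them Ndufa2, Ndufa4l2, Ndufaf6, Ndufb4c, Ndufb9, Ndufs1 and Ndufs6b. Letters bound by factors known to act on respiratory genes were searched on both strands. The YY1 letters AAGATGGCG lay in 6 of 41 windows (14.6%), against 1.64% of all 27025 genes with a window and 3.06% of the 12201 of these that were tested here. The 10-letter NRF1 motif, seen in capitals in its sites below, lay in 9 (21.95%), against 5.19% of all and 10.02% of tested genes. The GABPA letters CCGGAAG lay in 6 (14.6%), against 9.93% and 17.96%, and the ESRRA letters TCAAGGTCA in 0 of 41, against 0.466% and 0.311%. The 6 YY1 matches all lay on the gene's own strand, between 10 and 35 bases after the start. They are shown because the same letters recur close to the start in genes of different modules, capitals marking the match, coordinates in GRCm38.p6:
Ndufa9 (chr6:126849096-126849125, minus strand): attgtgggagAAGATGGCGgccgccgtccg
Ndufs4 (chr13:114388045-114388074, minus strand): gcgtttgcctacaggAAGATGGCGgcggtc
Ndufs6 (chr13:73328433-73328462, minus strand): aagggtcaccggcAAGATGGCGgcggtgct
Ndufs7 (chr10:80249463-80249492, plus strand): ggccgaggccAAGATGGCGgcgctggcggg
Ndufc1 (chr3:51408914-51408943, minus strand): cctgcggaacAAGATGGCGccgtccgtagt
Ndufaf8 (chr11:120098934-120098963, plus strand): ggcagggcccAAGATGGCGgcgccctcgag

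The NRF1 matches of Ndufs6, which held the YY1 letters too, and of Ndufaf4, whose match reads the same on both strands, are shown as examples of that motif. The stretches upstream of Ndufv1 and Ndufa10, outside annotated exons, are shown because these genes had the smallest p of the 49. None of the 4 motifs was in the windows of Ndufv1 and Ndufa10, which says only that these letters are not there:
Ndufs6 (chr13:73328479-73328508, minus strand): cgactgctgtGCGCCTGCGCcggcacttgg
Ndufaf4 (chr4:24897960-24897989, plus strand): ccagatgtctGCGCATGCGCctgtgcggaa
Ndufv1 (chr19:4012807-4013005, minus strand): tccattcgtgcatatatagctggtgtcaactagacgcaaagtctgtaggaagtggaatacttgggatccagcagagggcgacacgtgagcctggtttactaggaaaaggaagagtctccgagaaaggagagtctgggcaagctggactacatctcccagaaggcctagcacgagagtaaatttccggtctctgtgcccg
Ndufa10 (chr1:92473861-92474008, minus strand): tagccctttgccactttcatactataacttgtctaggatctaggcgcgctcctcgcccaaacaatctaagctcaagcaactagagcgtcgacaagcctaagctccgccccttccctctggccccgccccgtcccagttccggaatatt

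The complex I genes leaned towards higher levels in single-housed mice by a small amount, and no single gene passed the test. Log2 fold changes, single over group housing, were above 0 for 42 of the 49 genes, against 48.1% of all 18085 genes tested. Their median was 0.16 over the 41 subunit genes and 0.073 over the 8 assembly factor genes, and -0.013 over all genes. The deposited FPKM carry no correction for composition, and on them the median over all genes tested was lower under single housing. On log2(FPKM + 1), 34 of the 49 differences were above 0, against 34.12% of all genes tested. The median difference there was 0.088 for subunit genes and 0.0010 for assembly factor genes, and -0.064 over all genes tested.

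In edgeR's quasi-likelihood test 0 of the 49 complex I genes had a Benjamini-Hochberg adjusted p below 0.05, against 0% of all genes, and the smallest adjusted p among the 49 was 0.588. At an unadjusted p below 0.05, 3 genes were higher in single housing, against 3.49% of all genes, and 0 were lower, against 3.47% (6.96% in both directions). DESeq2 called 0 of the 49 and 1.14% of all genes, and limma on log2(FPKM + 1) called 0 of the 49 and 0 of the 14184 genes in that fit. The 3 were Ndufv1, Ndufa10 and Ndufs1.

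**Figure D1:**
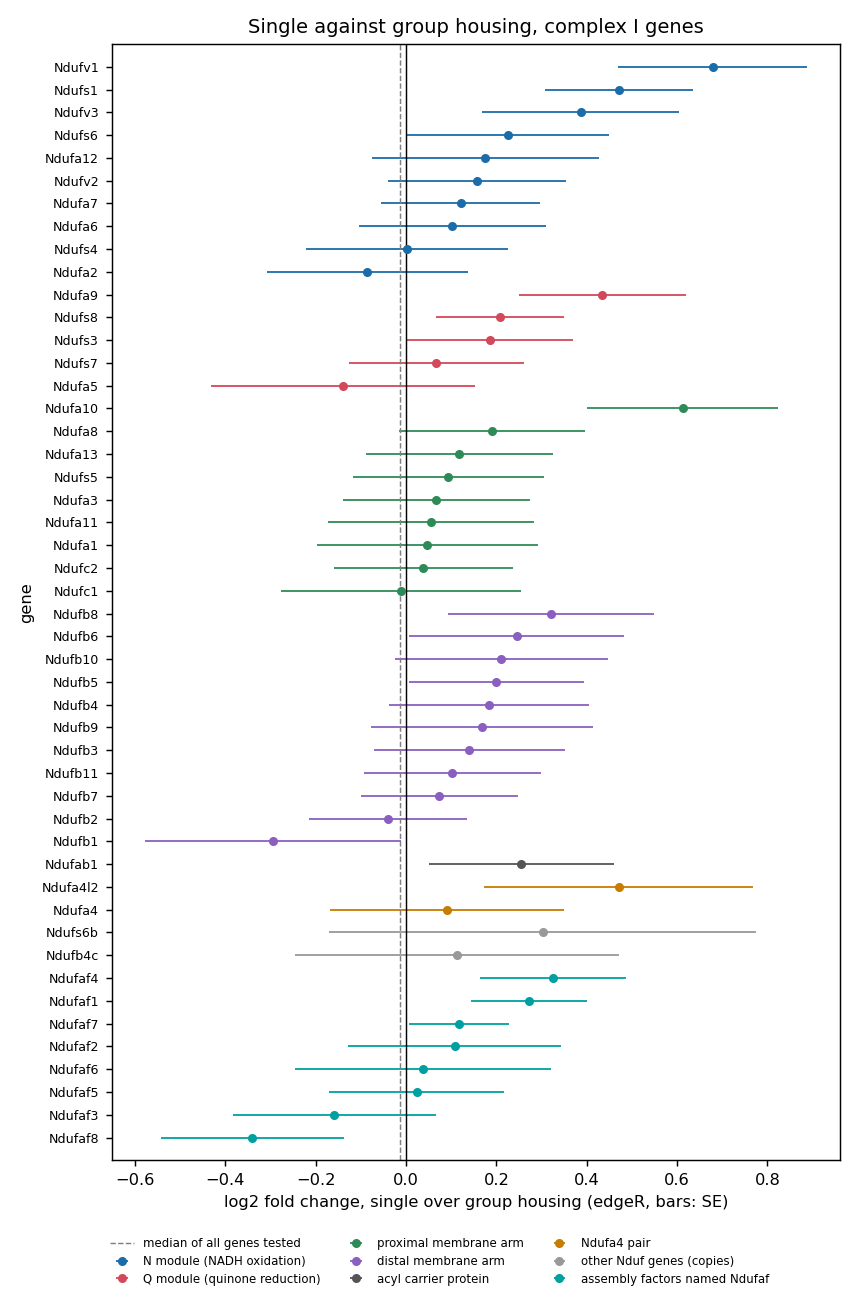
Log2 fold change of 48 complex I genes, single over group housing (points, edgeR) with its SE (bars), grouped by place in the complex, on the horizontal axis in log2 units. The dashed line is the median of all genes tested (-0.013); 41 of 48 points lie above 0, with Ndufv1 (0.68) and Ndufa10 (0.61) farthest to the right and Ndufaf8 (-0.34) farthest to the left.

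The lean towards single housing depended on 1 library of each group. Group-housed library 3 had the lowest FPKM of the 6 for 46 of the 49 genes, whereas it was the lowest for 15.5% of all genes tested. With TMM scaling, which corrects for composition, it was the lowest for 47 of 49, against 24.9% of all genes, and single-housed library 3 was the highest for 35 of 49, against 30.6% of all genes. On FPKM single-housed library 3 was the highest for 14 of 49, against 18.1% of all genes, and group-housed library 1 for 31, against 17.4%. Summed over the subunit genes, FPKM came to 2511, 2350 and 2789 in single-housed libraries 1, 2 and 3, and to 2861, 2487 and 1847 in group-housed libraries 1, 2 and 3. On FPKM the single-housed values thus lay inside the range of the group-housed ones. With TMM scaling the subunit sums were 2511, 2308 and 3126 in single-housed and 2775, 2569 and 1688 in group-housed libraries. The groups overlapped there too, but single-housed library 3 lay above the group-housed range. The assembly factor genes summed to 84.5, 79.8 and 87.2 FPKM under single housing and 92.6, 81.0 and 72.7 FPKM under group housing. The single-housed sums were again inside the group-housed range. With TMM scaling the sum of single-housed library 3 (97.8) lay above the highest group-housed one (89.8). The SD was larger under group housing for 44 of 49 genes on FPKM, against 53.32% of all genes, and for 41 of 49 with TMM scaling, against 47.86%.

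Without group-housed library 3, 22 of 49 log2 fold changes were above 0 and the medians were -0.034 for subunit genes and -0.11 for assembly factor genes. Without single-housed library 3, whose muscle marker sum was the highest of the 6, 27 were above 0 with medians of 0.027 for subunit and 0.022 for assembly factor genes. Group-housed library 3 also had the lowest sums of white adipocyte (6037 FPKM), thermogenic adipocyte (311 FPKM) and adipose progenitor markers (271 FPKM). Its muscle marker sum (61.7 FPKM) was the lowest too, but near that of single-housed library 2 (63.9 FPKM). Its sums of B cell (1103 FPKM), T cell (195 FPKM) and macrophage markers (269 FPKM) were the highest of the 6. Single-housed library 3 had the lowest B cell (397 FPKM) and T cell (48.6 FPKM) sums. In bulk tissue fewer cells of a type and less RNA per cell cannot be told apart. Of the 42 tested genes of complexes III to V, 38 were also lowest on FPKM in group-housed library 3.

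**Figure D2:**
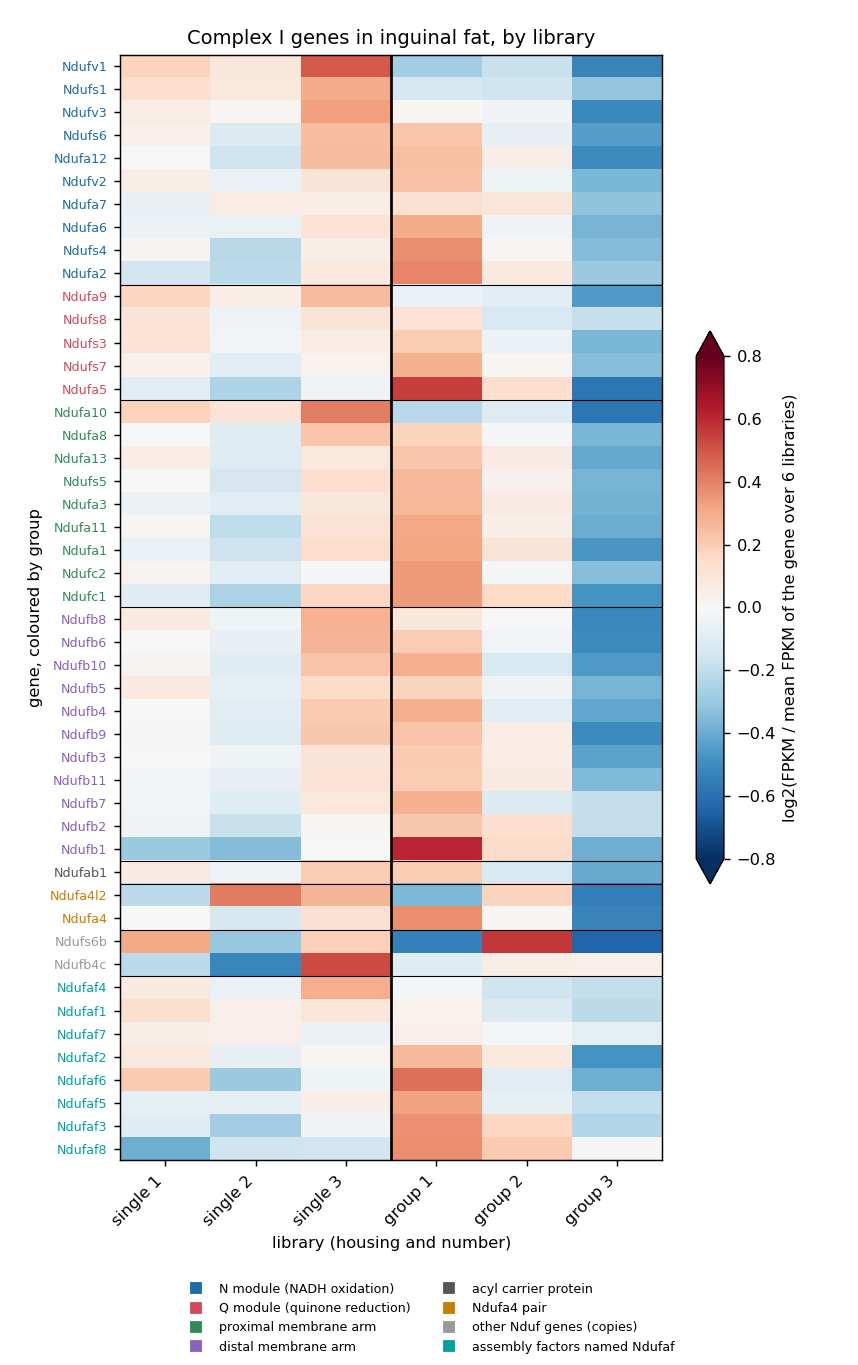
Level of 48 complex I genes in each library, as log2 of its FPKM over its mean FPKM in the 6 libraries (red above, blue below), libraries across and genes down, single housing left of the line and group housing right. Group-housed library 3 is the lowest for 45 of the 48 genes, and Ndufv1, Ndufs1, Ndufa9 and Ndufa10 are higher in all single-housed libraries than in any group-housed one.

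The groups lay wholly apart on FPKM for 6 of the 49 genes, against 13.9% of all genes tested, and with TMM scaling for 5, against 13.4%, so these counts were near those of all genes. On FPKM, all 3 single-housed libraries were above all 3 group-housed libraries for 5 genes, Ndufv1, Ndufs1, Ndufa9, Ndufa10 and Ndufaf1, against 4.86% of all genes tested. They were wholly below for 1 gene, Ndufaf8, against 9.01% of all genes. With TMM scaling the same 5 genes lay above, against 6.61% of all genes, and 0 lay below, against 6.78%. These 5 were also the genes above when group-housed library 3 was left out, but 7 genes then lay below (Ndufa2, Ndufa5, Ndufa7, Ndufaf3, Ndufaf8, Ndufb1 and Ndufb2), with 7.96% of all genes above and 13.2% below.

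The N module takes electrons from NADH. Ndufv1 (ENSMUSG00000037916; mm39 chromosome 19, 4057384 to 4062806, minus strand), the core subunit that binds NADH and the flavin, had 75.6, 71.0 and 93.9 FPKM in single-housed libraries 1 to 3, against 55.1, 59.0 and 46.2 FPKM in group-housed libraries 1 to 3. The groups did not overlap, and single-housed library 3 was the highest. The means were 80.2 ± 12.1 FPKM in single-housed and 53.4 ± 6.59 FPKM in group-housed mice (SD, n = 3 each), and the log2 fold change was 0.68 with an SE of 0.21 (edgeR adjusted p = 0.588). Ndufs1 (ENSMUSG00000025968; chromosome 1, 63182755 to 63215992, minus strand), the largest core subunit and the carrier of several iron-sulfur clusters, had 33.8, 32.6 and 37.9 FPKM in single-housed and 27.9, 27.6 and 24.7 FPKM in group-housed libraries. Its groups also lay apart (log2 fold change 0.47 ± 0.16, SE as for all fold changes from here on, edgeR adjusted p = 0.635). Ndufs1 overlaps Eef1b2, an opposite-strand gene with 39709 counts in all against its own 39557, and the labels do not tell if counting separated strands. Such an overlap was found for 20 of the 49 genes.

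Ndufv2, the core partner of Ndufv1 that holds a further iron-sulfur cluster, did not show this. It had 71.3, 66.3 and 73.9 FPKM in single-housed and 81.0, 66.9 and 53.5 FPKM in group-housed libraries. On FPKM the single-housed values thus lay within the group-housed range, and with TMM scaling the groups overlapped. Its log2 fold change was 0.16 ± 0.20. The accessory subunit Ndufv3 had 32.6, 31.5 and 39.2 FPKM in single-housed and 31.6, 30.6 and 21.9 FPKM in group-housed libraries, and the groups met at about 31.5 FPKM. Its log2 fold change was 0.39 ± 0.22. Ndufa2, a small accessory subunit, had 76.3, 73.2 and 89.5 FPKM in single-housed and 111, 89.8 and 69.1 FPKM in group-housed libraries, with a log2 fold change of -0.086 ± 0.22. The 5 other N module genes, Ndufs4, Ndufs6, Ndufa6, Ndufa7 and Ndufa12, had log2 fold changes between 0.0018 (Ndufs4) and 0.23 (Ndufs6), each with overlapping groups. Over the 10 N module genes, 9 log2 fold changes were above 0 and the median was 0.17.

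The Q module hands the electrons to ubiquinone. Ndufa9 (ENSMUSG00000000399; chromosome 6, 126798684 to 126826099, minus strand), an accessory subunit at the joint of the matrix and membrane arms, had 90.2, 83.0 and 95.3 FPKM in single-housed and 77.4, 75.1 and 58.4 FPKM in group-housed libraries. The groups did not overlap, and the log2 fold change was 0.43 ± 0.18 (edgeR adjusted p = 0.718).

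Further core subunits of this module carry iron-sulfur clusters or scaffold them and differed less. Ndufs8 had 50.9, 46.2 and 51.0 FPKM in single-housed and 51.3, 43.5 and 41.8 FPKM in group-housed libraries (log2 fold change 0.21 ± 0.14). Ndufs3 had 57.8, 52.5 and 55.7 FPKM in single-housed and 61.6, 51.7 and 41.5 FPKM in group-housed libraries (0.19 ± 0.18). Ndufs7 had 27.1, 24.9 and 27.0 FPKM in single-housed and 32.3, 26.8 and 20.9 FPKM in group-housed libraries (0.067 ± 0.19). On FPKM group-housed library 1 was the highest and group-housed library 3 the lowest in all of them, so that the groups overlapped. With TMM scaling single-housed library 3 was the highest for Ndufs8 and Ndufs3, and the groups still overlapped. The small accessory gene Ndufa5 was the extreme of the pattern on FPKM. It had 44.7, 39.8 and 46.5 FPKM in single-housed and 69.4, 52.0 and 31.7 FPKM in group-housed libraries and a log2 fold change of -0.14 ± 0.29. Over the 6 Q module genes, 5 log2 fold changes were above 0, with a median of 0.20.

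**Figure D3:**
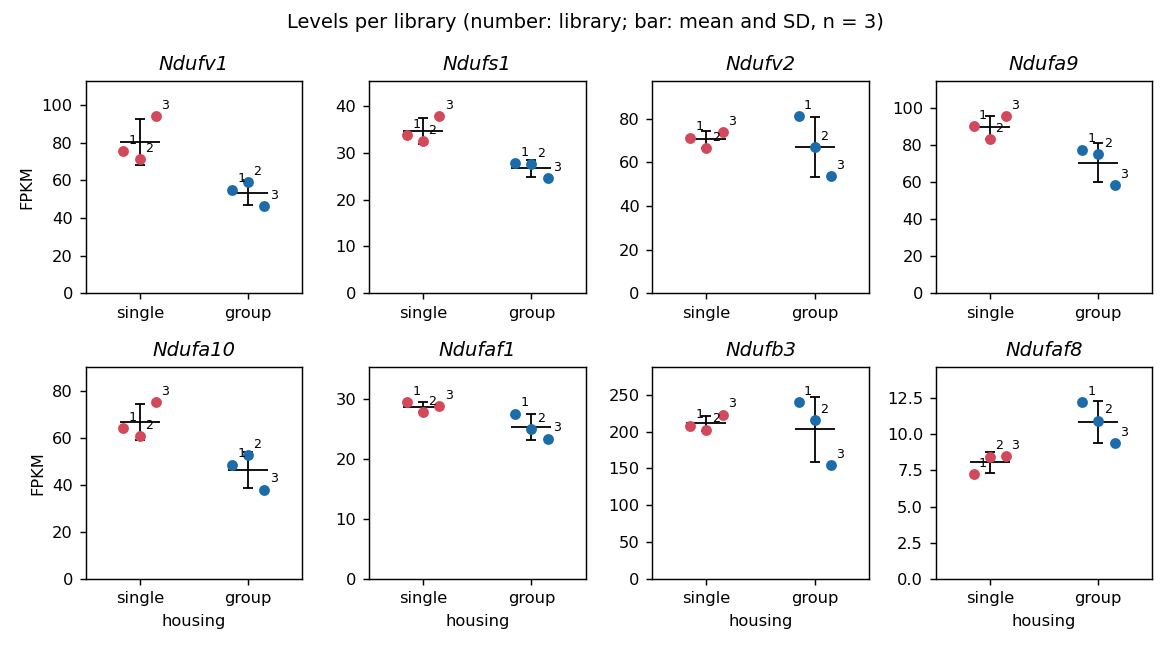
FPKM (vertical axes, from 0) of 8 complex I genes by housing, 1 point per library with its number, and mean and SD as bars (n = 3 each). Ndufv1, Ndufs1, Ndufa9, Ndufa10 and Ndufaf1 lie higher in all single-housed libraries and Ndufaf8 lower, while Ndufv2 and Ndufb3 overlap between the groups.

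In the proximal membrane arm, next to the matrix arm, Ndufa10 stood apart from its neighbours. This accessory subunit (ENSMUSG00000026260; chromosome 1, 92366732 to 92401582, minus strand) had 64.2, 61.0 and 75.3 FPKM in single-housed and 48.7, 52.7 and 38.0 FPKM in group-housed libraries. The groups did not overlap, with means of 66.8 ± 7.53 FPKM in single-housed and 46.5 ± 7.61 FPKM in group-housed mice (SD, n = 3 each; log2 fold change 0.61 ± 0.21, edgeR adjusted p = 0.635). The other 8 genes of this arm (Ndufa1, Ndufa3, Ndufa8, Ndufa11, Ndufa13, Ndufc1, Ndufc2 and Ndufs5) had log2 fold changes from -0.011 (Ndufc1) to 0.19 (Ndufa8), with overlapping groups in each. Ndufc1 had 21.8, 19.5 and 26.1 FPKM in single-housed and 29.5, 26.0 and 16.7 FPKM in group-housed libraries. The median of all 9 was 0.067.

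The nuclear genes listed here for the distal membrane arm are Ndufb genes and include the gene with the highest mean FPKM of the 49. Ndufb3 (ENSMUSG00000026032; chromosome 1, 58625543 to 58635123, plus strand) had 208, 203 and 223 FPKM in single-housed and 240, 216 and 154 FPKM in group-housed libraries, a log2 fold change of 0.14 ± 0.21. Ndufb2 was the lowest of the arm on FPKM, where its counts are divided by 5628 exon bases. It had 4.83, 4.35 and 4.95 FPKM in single-housed and 5.73, 5.40 and 4.31 FPKM in group-housed libraries (-0.040 ± 0.18). The groups overlapped for both.

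Ndufb1 had the most negative fold change among the subunits. It had 20.1, 19.4 and 24.7 FPKM in single-housed and 37.6, 27.5 and 18.8 FPKM in group-housed libraries (log2 fold change -0.29 ± 0.28, edgeR adjusted p = 0.866), with group-housed library 3 again the lowest. Without group-housed library 1 its log2 fold change was -0.030. It overlaps Cpsf2 on the opposite strand. Ndufb8 had 62.8, 58.4 and 72.6 FPKM in single-housed and 63.6, 59.6 and 41.8 FPKM in group-housed libraries (0.32 ± 0.23). Ndufb6 had 105, 101 and 127 FPKM in single-housed and 122, 104 and 74.2 FPKM in group-housed libraries (0.24 ± 0.24). The 6 others, Ndufb4, Ndufb5, Ndufb7, Ndufb9, Ndufb10 and Ndufb11, had log2 fold changes between 0.073 (Ndufb7) and 0.21 (Ndufb10). None of the 11 genes of the distal arm had groups that lay apart, and their median log2 fold change was 0.17.

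Ndufab1, the acyl carrier protein, had 20.6, 19.1 and 22.7 FPKM in single-housed and 22.6, 18.1 and 14.9 FPKM in group-housed libraries (log2 fold change 0.26 ± 0.20). Ndufa4 had 113, 103 and 123 FPKM in single-housed and 146, 114 and 78.0 FPKM in group-housed libraries (0.091 ± 0.26). Its paralog Ndufa4l2, known as a target of the hypoxia response, had 5.59, 8.62 and 7.81 FPKM in single-housed and 5.05, 7.31 and 4.41 FPKM in group-housed libraries (0.47 ± 0.30, edgeR adjusted p = 0.824). Ndufa4l2 overlaps Shmt2, an opposite-strand gene with 4839 counts against its own 1092. The groups overlapped for both, and the ratio of Ndufa4 to Ndufa4l2 FPKM was 20.2, 12.0 and 15.8 in single-housed and 28.9, 15.6 and 17.7 in group-housed libraries. Ndufs6b had 1.63, 1.07 and 1.51 FPKM in single-housed and 0.91, 1.96 and 0.85 FPKM in group-housed libraries (log2 fold change 0.30 ± 0.47), on 73 counts in all, and Ndufb4c, on 224 counts, had 3.12, 2.51 and 5.17 FPKM in single-housed and 3.37, 3.73 and 3.70 FPKM in group-housed libraries (0.11 ± 0.36). Reads of Ndufs6b and Ndufb4c can be split with those of Ndufs6 and Ndufb4, so both values are uncertain.

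The assembly factors were far lower on FPKM than the subunits, with a median mean level of 7.61 FPKM against 49.0 FPKM. Ndufaf1 (ENSMUSG00000027305; chromosome 2, 119485927 to 119493308, minus strand), part of the complex that assembles the membrane arm, had 29.6, 27.9 and 28.9 FPKM in single-housed and 27.6, 25.01 and 23.4 FPKM in group-housed libraries. The groups did not overlap, though they nearly met, and the log2 fold change was 0.27 ± 0.13 (edgeR adjusted p = 0.749). Ndufaf3 and Ndufaf4 work together on the Q module and lay on opposite sides of 0. Ndufaf4 had 16.7, 15.4 and 19.5 FPKM in single-housed and 15.8, 14.3 and 14 FPKM in group-housed libraries (0.32 ± 0.16, edgeR adjusted p = 0.772). Ndufaf3 had 6.01, 5.30 and 6.31 FPKM in single-housed and 8.27, 7.21 and 5.45 FPKM in group-housed libraries (-0.16 ± 0.22). Both sets of values overlapped between the groups.

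Ndufaf8 (ENSMUSG00000078572; chromosome 11, 119989754 to 119991531, plus strand), known in humans as a partner of Ndufaf5, was the gene with the most negative fold change of the 49. It had 7.23, 8.46 and 8.52 FPKM in single-housed and 12.2, 11.0 and 9.39 FPKM in group-housed libraries, with -0.34 ± 0.20 as its log2 fold change (edgeR adjusted p = 0.816). All single-housed values were below all group-housed ones on FPKM, but the groups overlapped after TMM scaling. Ndufaf5, a hydroxylase of Ndufs7, had 7.07, 7.05 and 7.67 FPKM in single-housed and 9.31, 7.06 and 6.48 FPKM in group-housed libraries (0.024 ± 0.19). Ndufaf7, a methyltransferase that acts early in assembly, had the smallest SE of the 49 genes, with 8.04, 8.01 and 7.52 FPKM in single-housed and 7.99, 7.69 and 7.40 FPKM in group-housed libraries (0.12 ± 0.11). Ndufaf2, which acts late on the N module, had 4.38, 3.94 and 4.17 FPKM in single-housed and 4.95, 4.36 and 2.96 FPKM in group-housed libraries (0.11 ± 0.24). Ndufaf6 had 5.48, 3.86 and 4.64 FPKM in single-housed and 6.43, 4.45 and 3.62 FPKM in group-housed libraries (0.038 ± 0.28). Ndufaf2 and Ndufaf3 overlap genes of the opposite strand with more counts than their own, Smim15 and Impdh2.

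The 7 core genes and the accessory genes were not in a fixed proportion. The core genes made up 18.6%, 18.4% and 18.3% of the summed subunit FPKM in single-housed libraries, against 15.3%, 16.7% and 18.1% in group-housed libraries. The single-housed shares were all higher than the group-housed ones, although by little against group-housed library 3. All 7 core log2 fold changes were above 0, with a median of 0.21, against 29 of 34 and a median of 0.12 for the accessory genes. Of the 10 genes with a log2 fold change above 0.3, 8 had 2000 or more exon bases and 2, Ndufa4l2 and Ndufs6b, had fewer. These were 47.06% of 17 long and 6.25% of 32 short genes, against 2046 of 13804 long and 642 of 4281 short genes among all tested. The 17 genes with 2000 or more exon bases had a median log2 fold change of 0.26, and the 32 shorter ones 0.10. Over all genes tested the medians were 0.0028 for 13804 long and -0.081 for 4281 short genes. Spearman's rho of fold change and exon length was 0.31 over the 49 genes and 0.14 over all genes, a description of genes that share libraries. The part of transcript length in the fold changes was not tested.

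**Figure D4:**
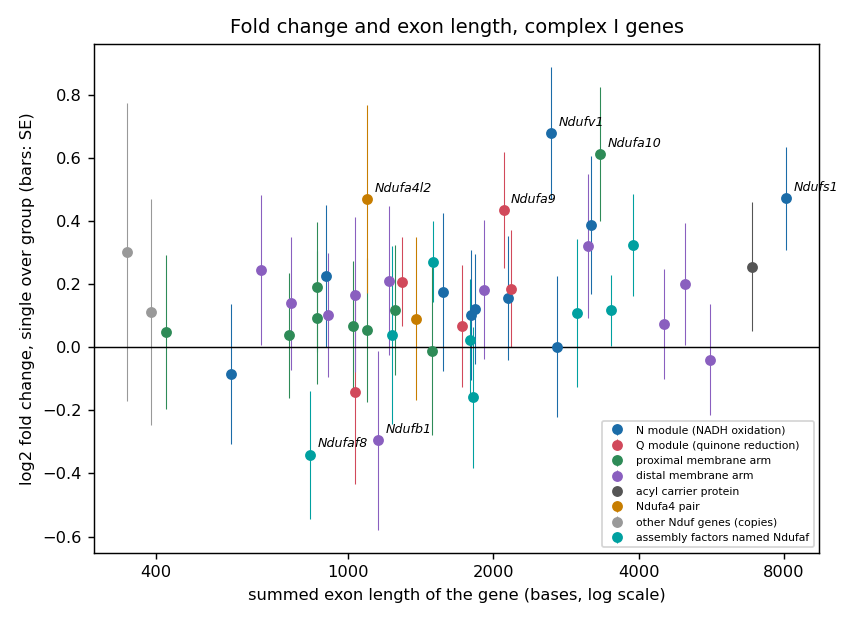
Log2 fold change, single over group housing (vertical axis, edgeR, bars SE), against the summed exon length in bases (horizontal axis, log scale) for 48 complex I genes, coloured by place in the complex. Ndufv1, Ndufs1, Ndufa9 and Ndufa10, the labelled points at the upper right, all have more than 2000 exon bases; Spearman's rho over all 49 genes is 0.31.

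Named subunits passed the test in 1 alternative. When the mean level of the muscle markers entered the edgeR fit as a covariate, 5 of the 49 genes had an adjusted p below 0.05, all higher in single housing, against 2.9% of all genes called higher (6.34% in both directions). Among them were Ndufv1 (log2 fold change 0.68 ± 0.079, edgeR adjusted p = 0.00385), Ndufa10 (0.63 ± 0.093, adjusted p = 0.00986), Ndufs1 (0.47 ± 0.079, adjusted p = 0.0142) and Ndufa9 (0.45 ± 0.10, adjusted p = 0.0378). These were the smallest adjusted p-values of each over the 15 alternatives, and the largest was 0.9999 for each. The fold changes stayed near those without the covariate, while their standard errors were smaller. Lower calls with the covariate were 0 of the 49, against 3.44% of all genes. With the libraries of the highest muscle sums (single-housed 3 and group-housed 2) both left out, 0 of the 49 were called (smallest edgeR adjusted p = 0.179, with 6 at an unadjusted p below 0.05, all higher, against 6.08% of all genes in that fit), and Ndufv1 and Ndufa10 had log2 fold changes of 0.60 and 0.60.

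The mitochondrial chromosome encodes the remaining 7 core subunits of the membrane arm. Their log2 fold changes, 7 of 7 above 0, had a median of 0.74, and 5 had an unadjusted p below 0.05 in edgeR, all higher, against 3.49% of all genes, with none past the adjusted threshold. mt-Nd5, a proton-pumping subunit at the tip of the arm, had 3260, 3307 and 4261 FPKM in single-housed and 1498, 2439 and 2075 FPKM in group-housed libraries (log2 fold change 0.94 ± 0.28, edgeR adjusted p = 0.588). mt-Nd2 stood at 9539 ± 1307 FPKM in single-housed and 5881 ± 777 FPKM in group-housed mice (SD, n = 3 each; 0.79 ± 0.25). mt-Nd4 stood at 6549 ± 972 FPKM in single-housed and 4171 ± 686 FPKM in group-housed mice (0.74 ± 0.27). The groups lay apart for 6 of the 7 on FPKM, all higher in single housing, against 4.86% of all genes tested. With TMM scaling this was again 6, against 6.61%. They overlapped on FPKM for mt-Nd4l (29.4 ± 6.78 FPKM in single-housed and 21.2 ± 6.47 FPKM in group-housed mice). mt-Nd3 stood at 160 ± 15.3 FPKM in single-housed and 122 ± 24.0 FPKM in group-housed mice. These 2 genes thus add little to the sums below. mt-Nd6 stood at 3247 ± 372 FPKM in single-housed and 2070 ± 334 FPKM in group-housed mice (0.74 ± 0.23). The summed FPKM of the 7 exceeded that of the nuclear subunit genes 13.6-, 13.5- and 14.6-fold in single-housed and 7.54-, 10.6- and 11.1-fold in group-housed libraries. The single-housed ratios were all the higher. All mitochondrially encoded genes together took 9.19% to 12.1% of counts in single-housed and 6.02% to 7.53% in group-housed libraries.

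**Figure D5:**
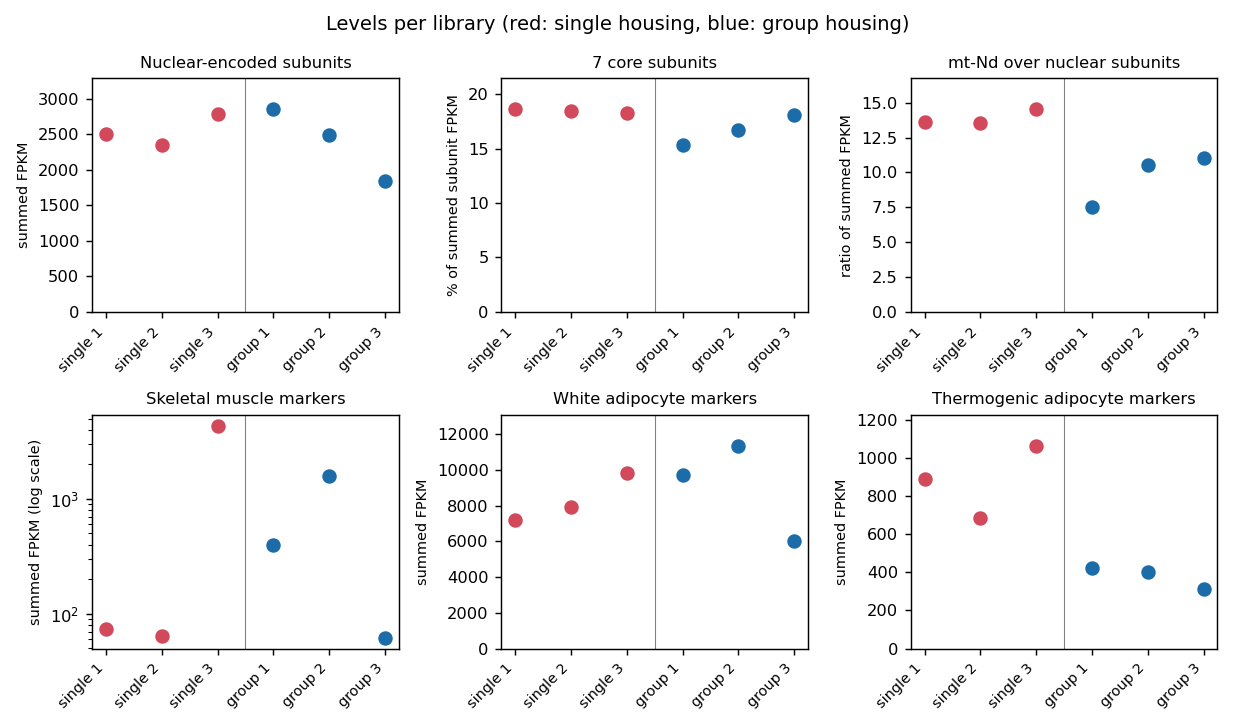
Values per library (horizontal axes), single housing in red on the left and group housing in blue on the right: summed FPKM of the nuclear-encoded subunit genes, the share of the 7 core genes in it, the ratio of mt-Nd to nuclear subunit FPKM, and the summed FPKM of muscle (log scale), white adipocyte and thermogenic adipocyte markers. The subunit sum overlaps between the groups (2350 to 2789 FPKM under single and 1847 to 2861 FPKM under group housing), while the core share and the mitochondrial to nuclear ratio do not.

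Assembly factors whose names do not start with Nduf were measured for 12 of 13 listed genes, and 9 of the 12 had a log2 fold change above 0 (median 0.17). None was called by edgeR after adjustment, and 2 had an unadjusted p below 0.05, both higher, against 3.49% of all genes. Foxred1, a factor needed for a late step of assembly, stood at 17.4, 16.2 and 16.1 FPKM in single-housed and 13.4, 14.5 and 13.8 FPKM in group-housed libraries (0.34 ± 0.12, edgeR adjusted p = 0.635). Aifm1, an oxidoreductase of the intermembrane space that complex I depends on, stood at 18.8, 18.6 and 21.5 FPKM in single-housed and 14.4, 16.7 and 14.5 FPKM in group-housed libraries (0.46 ± 0.16, edgeR adjusted p = 0.635). On FPKM 4 of the 12 (Ecsit, Foxred1, Tmem186 and Aifm1) lay wholly above under single housing, against 4.86% of all genes tested. Wholly below lay 1, Dmac1, against 9.01% of all genes. With TMM scaling 3 of the 12 lay above, against 6.61% of all genes, and 1 below, against 6.78%. The genes listed for their lack of overlap were named after the values were seen. Dmac1 had 34.4, 33.6 and 29.03 FPKM in single-housed and 43.9, 39.2 and 39.1 FPKM in group-housed libraries (-0.25 ± 0.11, edgeR adjusted p = 0.741).

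Regulators of mitochondrial gene expression gave 10 of 14 log2 fold changes above 0 (median 0.29), with 6 at an unadjusted p below 0.05, all higher, against 3.49% of all genes, and none past the adjusted threshold in edgeR. On FPKM 6 of the 14 lay wholly above under single housing, against 4.86% of all genes tested, and 0 below, against 9.01%. With TMM scaling 7 lay above, against 6.61% of all genes, and 1 below, against 6.78%. Those above on FPKM included Ppara, Tfb2m, and Esrrg and Esrra, nuclear receptors that act on respiratory genes. Esrrg had the lowest level of the 14, with a mean of 0.895 FPKM over the 6 libraries. Esrrg had 1.19 ± 0.35 FPKM in single-housed and 0.60 ± 0.025 FPKM in group-housed mice (SD, n = 3 each; log2 fold change 1.08 ± 0.23). Esrra had 13.2 ± 0.70 FPKM in single-housed and 10.35 ± 1.00 FPKM in group-housed mice (0.44 ± 0.13). Ppara, a receptor that induces fatty acid oxidation, stood at 4.78 ± 1.59 FPKM in single-housed and 2.21 ± 0.40 FPKM in group-housed mice (1.22 ± 0.32). Tfb2m, a mitochondrial transcription factor, stood at 16.3 ± 0.43 FPKM in single-housed and 13.8 ± 0.53 FPKM in group-housed mice (0.33 ± 0.11). The 4 regulators below 0 were Pprc1 (-0.31 ± 0.16), Gabpb1 (-0.18 ± 0.12), Nrf1 (-0.014 ± 0.14) and Tfam (-0.012 ± 0.12). Yy1 lay near 0 (0.023 ± 0.10). Genes that stand for mitochondrial mass gave 11 of 12 log2 fold changes above 0 (median 0.21), with 0 at an unadjusted p below 0.05 in edgeR. They ran from -0.13 (Tomm22) to 0.44 (Cs). On log2(FPKM + 1), 7 of the 12 differences were above 0, against 34.12% of all genes tested.

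Beside these, the 42 tested genes of complexes III to V had 34 log2 fold changes above 0 and a median of 0.15, and the 78 genes of mitochondrial ribosomal proteins had 46 above 0 and a median of 0.032. No difference between these lists and the complex I subunit genes (median 0.16) was tested.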

How the data were processed

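The deposited table holds, per the file headers, whole-number counts per gene and FPKM for each of the 6 libraries. Counts were not normalized by the authors. The deposited FPKM equalled counts scaled to exon length and library total in 100% of values, within 0.0051. The submitters' processing notes name build mm39; the aligner, the counter and its strand setting: not given in the sources used here. A further 24 columns name other tissues and were not used, and 2639 rows without symbol (0.118% to 0.171% of counts) carry gene identifiers and stayed in the test. A second deposited sheet held the same counts.

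Counts of all 6 libraries were tested with edgeR 4.0.16 (R 4.3.3; filterByExpr, TMM, quasi-likelihood F test, two-sided), with Benjamini-Hochberg adjustment over 18085 genes. The SE is the log2 fold change over the root of F. The fits were tested on simulated data. Alternatives were DESeq2 1.42.0, limma 3.58.1 on log2(FPKM + 1) and log2(FPKM + 0.1), other filters and scaling, a replicate block, a muscle covariate and left-out libraries. P-values measure the spread between these mice. Totals per library limit only the precision of genes with few counts.

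Genes, lists and alternatives were chosen with earlier results of these data known. The rule for values in every library took the 7 nuclear core genes, Ndufa4 and Ndufa4l2, the Ndufaf genes, the 6 others of smallest p in each direction (5 had a negative fold change), and the highest and lowest by mean FPKM. From other lists at most 4 genes with an unadjusted p below 0.05 are named, and cell type markers are given as sums. Some others were named for lying apart or overlapping, for a low level, or for a fold change near or below 0. The values of 1 of the 49 genes are not reported here, and it is not drawn in the figures, but it is counted in the totals.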

Additional observations from a re-analysis of the deposited data

How the results depend on the processing

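Of 450 values of 30 named genes under alternatives, 415 kept their direction and side of the threshold, 5 passed the threshold with the muscle covariate (among them Ndufv1, Ndufa10, Ndufs1 and Ndufa9) and 30 changed sign. The number of all genes called was 0 in edgeR, 207 with DESeq2, 53 with no filter on low counts, 1147 with the muscle covariate and 22 with group-housed 2 and single-housed 3 left out. Complex I genes called were 5 with the covariate and 0 under the others. No label pairs the libraries, so their numbers were not taken as pairs. Same-numbered libraries correlated at 0.12, -0.56 and -0.70 after removing group means. These values cannot decide on pairing, since the libraries also differ in their marker sums. With the replicate block 0 genes were called, 43 of 49 fold changes were above 0 and the medians were 0.18 for subunit and 0.09 for assembly factor genes. Leaving out 1 library in turn gave 22 to 46 complex I genes above 0, and medians of -0.034 to 0.30 for subunit and -0.11 to 0.23 for assembly factor genes. The cause of these changes was not tested. The counts of genes above 0, at an unadjusted p below 0.05 and with groups apart under other settings were chosen after seeing the data.

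Log2 fold changes that changed sign were those of Ndufaf5 (-0.047 and -0.051 in limma with pseudocounts of 1 and 0.1, where the medians of all genes were -0.088 and -0.11, and -0.088 with both muscle-rich libraries left out), Ndufaf6 (-0.025, -0.026 and -0.013 under the same settings) and Ndufc1 (0.011 with the replicate block, 0.017 with the muscle covariate). Leaving out 1 library gave -0.11 to 0.22 for Ndufs7, -0.0075 to 0.31 for Ndufv2, -0.14 to 0.31 for Ndufa4, -0.10 to 0.26 for Ndufaf2, -0.11 to 0.19 for Ndufaf5, -0.16 to 0.29 for Ndufaf6 and -0.048 to 0.27 for Ndufb3. It gave -0.41 to 0.14 for Ndufa5, -0.27 to 0.090 for Ndufa2, -0.18 to 0.049 for Ndufb2 and -0.24 to 0.15 for Ndufc1. Without a change of sign, it gave -0.53 to -0.030 for Ndufb1 and -0.34 to -0.024 for Ndufaf3. Depth limits mainly Ndufs6b (73 counts) and Ndufb4c (224 counts).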
